A study of Mus musculus with 12 samples.

Results

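PPAR and ERR nuclear receptors, the PGC-1 coactivators and the factors that carry their signal to mitochondria were followed in the Neuro-2a line, established from a mouse neuroblastoma and able to take on neuronal traits. The members were chosen by name, as Ppara, Ppard, Pparg, Esrra, Ppargc1a, Ppargc1b, Pprc1, Nrf1, Gabpa and Tfam, and are 10 of the 15767 genes in the deposited tables. In all, 9 of the 10 passed the filter on low counts, as did 13014 genes of the whole table, and Ppargc1a did not. The 12 RNA libraries came from wild-type Neuro-2a cells, of which 4 had received the control miR-Con, 4 a miR-155 mimic and 4 a miR-155 inhibitor by transfection. All 3 groups received their RNA with the reagent RNA Fit without serum or antibiotics, were returned to growth medium after 4 h and were cultured to day 2. The series title asks about miR-155, PPARγ, PGC-1α, ERRα and Drp1 in hypoxic or ischaemic neuronal cells, whereas the labels of these libraries name no hypoxic condition.

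Nuclear receptors of the PPAR family bind fatty acids and their derivatives, pair with a retinoid X receptor and switch on genes of lipid use. ERRα, the product of Esrra, is an orphan receptor that binds the genes of the respiratory chain and the citric acid cycle. Coactivators of the PGC-1 family dock on these receptors and on NRF1 and the ETS factor GABPA. Both factors in turn act on nuclear genes for mitochondrial proteins, among them Tfam. The Tfam product packages mitochondrial DNA and takes part in its transcription. Nrf1 here is nuclear respiratory factor 1, a different gene from Nfe2l1.

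The guide strand of miR-155 and the places where it could pair with these mRNAs are shown first, since the treatments were meant to raise or block this microRNA. The labels do not say which arm the mimic copies, and the 5p arm was used. In the mature sequence from RefSeq (GRCm38.p6, chr16:84714143-84714165, plus strand) the seed, bases 2 to 8, is in capitals.

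mmu-miR-155-5p: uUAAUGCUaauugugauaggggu

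Sites that pair with this seed read AGCATTAA (8mer), AGCATTA (7mer-m8) or GCATTAA (7mer-A1) in the mRNA. None of these stood in the longest annotated 3' UTR of any of the 10 members, in GENCODE release M21 on GRCm38, where 13.2% of 12844 tested genes held at least 1. The members' 3' UTRs ran from 204 bases in Pparg to 3930 bases in Ppargc1a, beside a median of 1131 bases over tested genes. The weaker 6-base match GCATTA, with no further pairing, was found in Esrra and in Tfam, and in 10.4% of tested 3' UTRs. Both are printed 5′ to 3′ with the match in capitals, and the other 8 members held no match of any of these types.

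Esrra, 3' UTR bases 465 to 470: tcctcatccgcattggGCATTAttgccccc
Tfam, 3' UTR bases 3062 to 3067: tgctgaccaagaaactGCATTAtttaaatt

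Gabpa lies on the same chromosome as the miR-155 gene, and genes between them were not looked up. On mouse chromosome 16 the miR-155 hairpin (chr16:84714140-84714204, GRCm38.p6) ends 121 kb before the start region of Gabpa (chr16:84834874-84835173), and both are on the plus strand.

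The promoters of Esrra and Tfam are shown because these members were called lower in the libraries numbered 4, described below. The call for Tfam did not hold in all fits. Pprc1 also lay below numbers 1 to 3 in each treatment group, without being called. Whether the motifs bear on these values was not tested. Each run covers the start of the gene and the sequence before it, from RefSeq on GRCm38.p6, on the gene's own strand. Capitals mark letters that match motifs of factors among the members. The motifs searched on both strands were CCGGAAGT for GABP, TGCGCANGC for NRF1 along with its longer palindrome (GCGCA followed directly by TGCGC), TCAAGGTCA for ERR, the DR1 element for PPAR (AGGTCA repeated after any 1 base) and the E-box CACGTG.

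Esrra promoter, chr19:6921759-6922058, minus strand: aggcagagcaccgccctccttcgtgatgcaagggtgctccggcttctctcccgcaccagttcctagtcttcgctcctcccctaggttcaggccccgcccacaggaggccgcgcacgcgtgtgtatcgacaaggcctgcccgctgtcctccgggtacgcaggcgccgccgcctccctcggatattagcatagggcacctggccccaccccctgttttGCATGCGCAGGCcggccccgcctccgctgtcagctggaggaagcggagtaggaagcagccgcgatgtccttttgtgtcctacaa
Tfam promoter, chr10:71237995-71238294, minus strand: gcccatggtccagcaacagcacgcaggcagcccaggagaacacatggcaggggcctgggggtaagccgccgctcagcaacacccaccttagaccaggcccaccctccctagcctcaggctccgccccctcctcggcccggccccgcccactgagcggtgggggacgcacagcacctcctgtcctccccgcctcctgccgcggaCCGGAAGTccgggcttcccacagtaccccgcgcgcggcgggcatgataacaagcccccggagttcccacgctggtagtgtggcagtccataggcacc

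In the Esrra promoter the NRF1 letters matched on both strands in overlapping places, 34 and 31 bases before the start, a motif that 4.16% of 32851 promoters hold. In Tfam the GABP letters stood 47 bases before the start, and 3.89% of promoters hold them. The promoter of Ppara held the longer NRF1 motif 31 bases before its start, which 0.971% of promoters do. The promoter of Ppargc1b was not read. No match to these motifs was found in the same window for Ppard, Pparg, Ppargc1a, Pprc1, Nrf1 or Gabpa. The ERR motif is in 0.423% of promoters, the PPAR motif in 0.0396% and the E-box in 7.15%, and none of these was in the promoters read here.

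Total counts ran from 60695388 to 74200532 per library. Neuro-2a identity was in place: of 20 neuroblastoma and neuronal markers, 15 stood at 10 TPM or more on average, among them Hand2 at 1776 TPM and Chgb at 2799 TPM. Markers of other cells summed to little in every library, 5.17 to 6.43 TPM for 6 adipocyte genes, of which 5 were under 1 TPM, 6.13 to 9.90 TPM for 5 fibroblast genes, 3.46 to 5.18 TPM for 7 glial genes and 2.03 to 3.63 TPM for 6 immune and endothelial genes. The 3 libraries numbered 4, 1 in each treatment group, stood apart from the rest, and 41.5% of tested genes differed between them and numbers 1 to 3 (edgeR's quasi-likelihood test, adjusted p under 0.05). The labels do not say what a replicate number stands for, nor that replicates came from separate cultures, and the p-values then rest on a spread among libraries that may be technical.

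Levels were compared between genes in TPM, a transcript level that allows for gene length. Tfam was the most abundant member, at 74.6 ± 10.5 TPM, followed by Esrra at 56.0 ± 8.11, Pprc1 at 46.6 ± 2.15 and Gabpa at 29.4 ± 4.49 TPM (SD, n = 12 libraries for each). A lower tier held Ppard at 16.3 ± 4.48 TPM, Pparg at 14.9 ± 2.53, Ppargc1b at 14.3 ± 0.622 and Nrf1 at 10.7 ± 0.536 TPM. Ppara stood at 2.59 ± 0.478 TPM, and Ppargc1a was the only member near 0. Against all 15767 genes these mean levels spanned the 82.9th percentile for Tfam to the 32.3rd for Ppara, with Ppargc1a at 1.35.

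Neighbours in this order were not always apart. The ranges of Tfam and Esrra over the 12 libraries overlapped, with Tfam higher in 11 libraries, as did those of Esrra and Pprc1, with Esrra higher in 10. Ppard, Pparg and Ppargc1b could not be ordered beyond their spread: Ppard exceeded Pparg in 8 of 12 libraries and Pparg exceeded Ppargc1b in 8. Gabpa and Ppard overlapped in range although Gabpa was higher in all 12 libraries. By contrast Pprc1 did not overlap Gabpa, nor did Ppargc1b overlap Nrf1 or Nrf1 overlap Ppara.

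**Figure D1:**
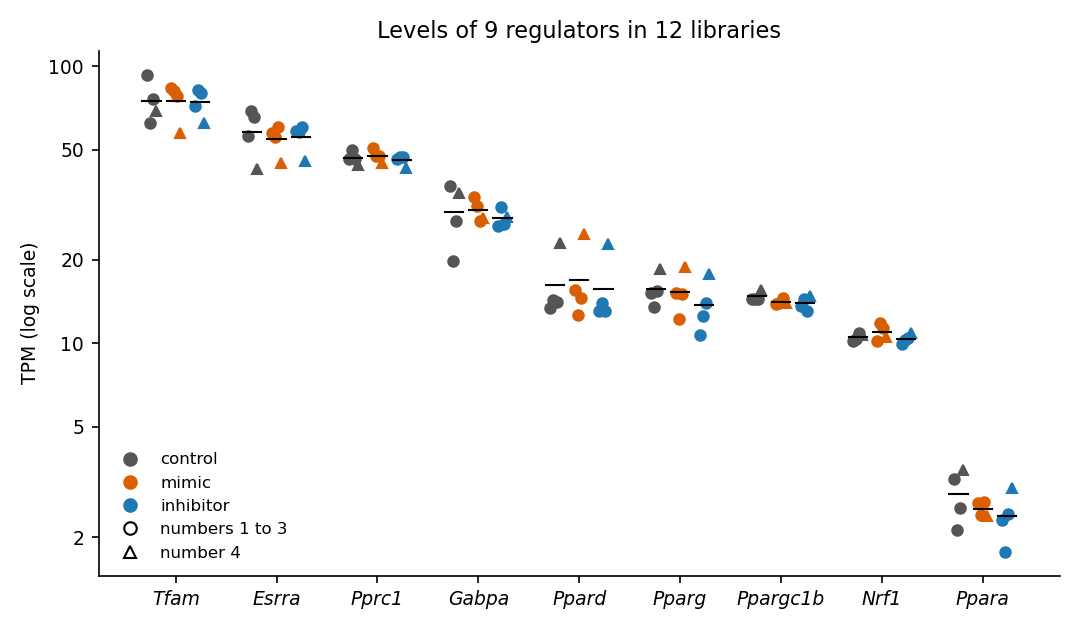
TPM on a log axis for the 9 members with counts in all 12 libraries, ordered by mean level. Each point is 1 library, coloured by treatment, triangles are the libraries numbered 4 and black lines are group means (n = 4). The triangles of Ppard and Pparg sit above, and those of Esrra below, all circles of the same gene.

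The receptors are given first, from here on in CPM, counts scaled to a common library size, which compare libraries within a gene. Ppara, the PPAR best known from fatty acid oxidation in liver, measured 4.53, 3.25, 3.71 and 5.02 CPM in controls 1 to 4, 3.66, 3.37, 3.87 and 3.52 CPM with the mimic, and 3.45, 2.52, 3.49 and 4.42 CPM with the inhibitor. The 3 groups overlapped, and the lowest value was inhibitor 2 and the highest control 4.

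Ppard, the broadly expressed PPARδ, measured 31.6, 37.1, 34.5 and 55.6 CPM in controls 1 to 4. In the mimic libraries it measured 36.1, 29.9, 35.7 and 62.0 CPM, and in the inhibitor libraries 32.8, 33.5, 31.7 and 56.4 CPM. Each group held 3 libraries between 29.9 and 37.1 CPM and 1 library, numbered 4, above 55 CPM, so the spread lay inside the groups and not between them.

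Pparg, the adipogenic PPARγ named in the series title, measured 19.3, 18.7, 20.2 and 24.03 CPM in controls 1 to 4. The mimic libraries gave 18.9, 15.5, 19.7 and 25.1 CPM and the inhibitor libraries 14.5, 16.1, 18.2 and 23.6 CPM. The library numbered 4 was again the highest of each group, and inhibitor 1 the lowest of all 12.

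Esrra ran the other way. It measured 89.5, 120.6, 108.5 and 69.6 CPM in controls 1 to 4, 90.6, 89.6, 99.5 and 75.5 CPM in mimic, and 99.6, 94.0, 99.8 and 76.1 CPM in inhibitor. The library numbered 4 was the lowest of each group, while control 2 was the highest of the 12.

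Among the coactivators, Ppargc1a, which encodes PGC-1α, had 5 counts in control 2 and 0 counts in the other 11 libraries, where 3 counts would correspond to 0.0400 to 0.0496 CPM. A difference between groups was not detectable at this depth. Ppargc1b, encoding the related PGC-1β, was among the steadiest members at 16.8 ± 0.881 CPM over the 12 libraries (SD), from 15.4 to 18.2 CPM. It measured 16.5, 18.0, 17.1 and 18.2 CPM in control, 15.5, 16.0, 17.2 and 16.8 CPM in mimic and 16.6, 16.7, 15.4 and 17.6 CPM in inhibitor. Pprc1, encoding the PGC-1-related coactivator PRC of growing cells, varied as little, 133.8 ± 6.91 CPM, with 151.3 CPM in control 2 as its highest value and 124.5 CPM in inhibitor 4 as its lowest. For both coactivators the 3 groups overlapped.

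Of the downstream factors, Nrf1 averaged 63.0 ± 3.19 CPM in the controls, 64.4 ± 4.83 CPM with the mimic and 62.1 ± 2.19 CPM with the inhibitor (SD, n = 4 libraries per group). Gabpa, the DNA-binding subunit of GABP, varied most among controls, at 50.9, 30.04, 39.5 and 49.3 CPM, and stood between 38.5 and 45.6 CPM in the 8 mimic and inhibitor libraries. Tfam measured 99.7, 72.8, 84.0 and 75.5 CPM in controls 1 to 4, 87.4, 87.5, 85.9 and 64.7 CPM in mimic, and 82.0, 89.0, 87.8 and 69.5 CPM in inhibitor. Control 2 was the lowest control for Gabpa and for Tfam and the highest for Esrra and Pprc1.

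Mimic against control asks whether added miR-155 changed these regulators. Here 0 of 9 members passed edgeR's quasi-likelihood test at an adjusted p of 0.05, as did 0% of the 13014 genes tested. Log2 fold changes of CPM ran from -0.19 for Ppara (95% interval -0.59 to 0.20) to 0.04 for Ppard (-0.52 to 0.60), with a median of -0.028 beside -0.0068 over all genes. At an unadjusted p under 0.05 there were 0 members and 71 genes, or 0.546%, and DESeq2 called 0 members and 3 genes. Each member's interval included 0. The intervals were narrowest for Pprc1 (-0.15 to 0.14) and Nrf1 (-0.12 to 0.19) and widest for Ppard, whose upper bound is a 1.52-fold rise. The treatment fits had group as the only term, so differences between replicate numbers entered the spread behind these intervals. The share of 0.546% is below what a threshold of 0.05 gives by chance, so the test may be conservative. With the replicate number as a block, 191 genes and 0 members had an unadjusted p under 0.05 by edgeR.

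In inhibitor against control, asked to see what blocking miR-155 does, 0 of 9 members and 0% of genes passed the same test. All 9 fitted values were below 0, from -0.25 for Ppara (-0.65 to 0.15) to -0.015 for Tfam (-0.29 to 0.26), with a median of -0.064 against -0.0099 over all genes. Pparg had a log2 fold change of -0.18 (-0.55 to 0.18) and Ppargc1b one of -0.07 (-0.24 to 0.10). None reached an unadjusted p under 0.05, beside 67 genes, or 0.515%, and DESeq2 called 0 members and 1 gene. Set against the control of the same number, the inhibitor library was lower at each of the 4 numbers for Ppara and for Pparg. Log2 differences ran from -0.39 to -0.085 for Ppara and from -0.41 to -0.024 for Pparg, a description with no test. The share of all genes that keep 1 direction at all 4 numbers is not given here, so these members cannot be set against it. The other members were higher at 1 or 2 numbers. In the other treatment comparisons only Esrra, in mimic against inhibitor, kept its direction at all 4 numbers (-0.14 to -0.0042). The numbers as a whole did not meet the criterion for pairing given below. The members share the same libraries, so their signs are not independent. Without the libraries numbered 4, 7 of 9 members were below 0, with values from -0.28 to 0.014, and 0 passed. There Pparg had the smallest unadjusted p (0.0474, log2 fold change -0.26, adjusted p = 0.9995 by edgeR).

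Mimic against inhibitor sets the opposed reagents side by side, and it shares its libraries with the comparisons above. Here too 0 of 9 members and 0% of genes passed edgeR's test, with log2 fold changes from -0.06 for Esrra (-0.39 to 0.28) to 0.13 for Pparg (-0.24 to 0.50) and a median of 0.053, against 0.0024 over all genes. At an unadjusted p under 0.05 there were 0 members and 77 genes (0.592%), and DESeq2 called 0 members and 6 genes. In all 3 treatment comparisons, 0 of 9 members had libraries that did not overlap between the groups, beside 0.684% of genes for mimic against control, 0.645% for inhibitor against control and 0.861% for mimic against inhibitor. Over the alternatives run, the adjusted p of a member in these comparisons was 0.865 or above.

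**Figure D2:**
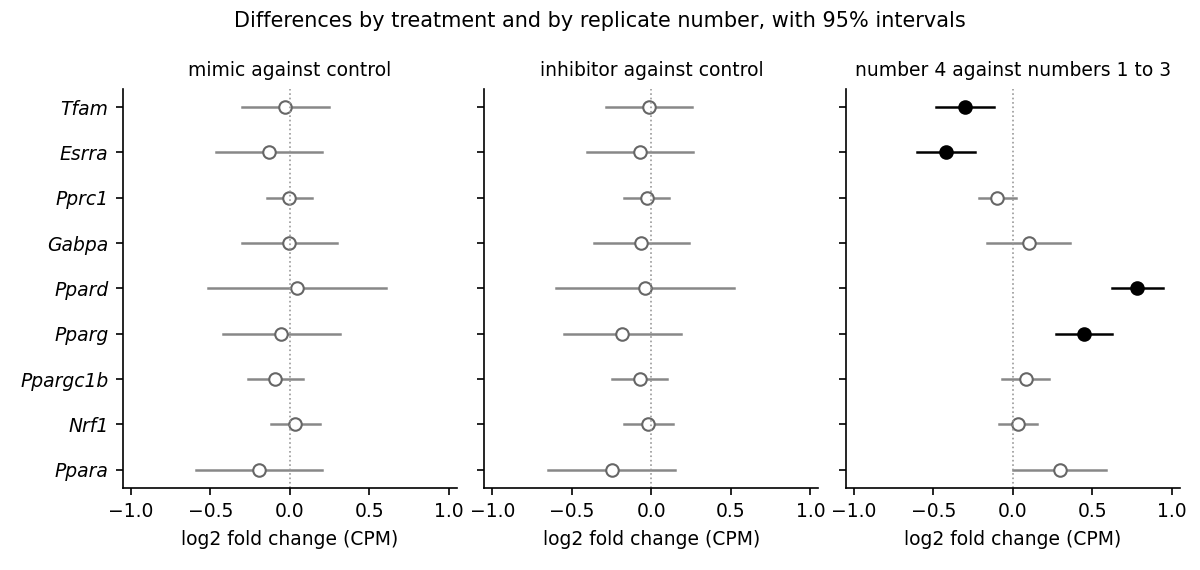
Log2 fold changes of CPM from edgeR with 95% intervals for mimic against control, inhibitor against control, and the libraries numbered 4 against numbers 1 to 3, for the 9 members tested. Filled points passed an adjusted p of 0.05: none in the treatment panels, and Tfam (-0.30), Esrra (-0.42), Ppard (0.78) and Pparg (0.45) in the panel for number 4.

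By replicate number some of the members differed. With treatment group as a term in the fit, 4 of 9 members differed between number 4 and numbers 1 to 3, where 41.5% of all tested genes did, so that the share is close to that of the transcriptome. Ppard and Pparg were higher in number 4, as were 20.4% of genes, and Esrra and Tfam were lower, as were 21.1% of genes. This contrast of numbers was singled out with earlier results of these data known. When the 4 numbers were tested together, with none singled out, Ppard, Pparg and Esrra passed, 3 of 9 members beside 27.3% of genes, and Tfam did not (adjusted p = 0.0713 by edgeR).

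Ppard differed most. It averaged 58.0 ± 3.50 CPM in the 3 libraries numbered 4 and 33.7 ± 2.39 CPM in the other 9 (SD), a log2 fold change of 0.78 ± 0.07 (SE), or 1.72-fold (adjusted p = 1.79e-05 by edgeR). The lowest number 4 library, control 4 at 55.6 CPM, was above the highest of the others, control 2 at 37.1 CPM. Its change was greater in size than those of 91.9% of tested genes.

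Pparg averaged 24.3 ± 0.770 CPM in number 4 and 17.9 ± 2.03 CPM in the others (SD, n = 3 and n = 9), a log2 fold change of 0.45 ± 0.08 (SE, adjusted p = 0.00113 by edgeR). Number 4 lay above numbers 1 to 3 in each treatment group, by 0.31 on the log2 scale in control, 0.48 in mimic and 0.55 in inhibitor. Whether these sizes differ between treatments cannot be tested, since each rests on 1 library numbered 4.

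Esrra averaged 73.7 ± 3.57 CPM in number 4 and 99.1 ± 10.2 CPM in the others (SD, n = 3 and n = 9), a log2 fold change of -0.42 ± 0.08 (SE, adjusted p = 0.00215 by edgeR). Its 3 number 4 libraries, from 69.6 to 76.1 CPM, were all below the lowest of the other 9, at 89.5 CPM. Tfam averaged 69.9 ± 5.40 CPM against 86.2 ± 7.05 CPM, a log2 fold change of -0.30 ± 0.08 (SE, adjusted p = 0.0131 by edgeR). Here the ranges overlapped, since control 4 (75.5 CPM) exceeded control 2 (72.8 CPM), and the call was lost without mimic 4 (adjusted p = 0.0893) or without inhibitor 4 (adjusted p = 0.06515). Libraries numbered 4 did not overlap the others for 3 of 9 members, Ppard, Pparg and Esrra, beside 36.9% of genes. By direction, 17.9% of genes lay wholly higher in number 4, as Ppard and Pparg did, and 19% wholly lower, as Esrra did.

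**Figure D3:**
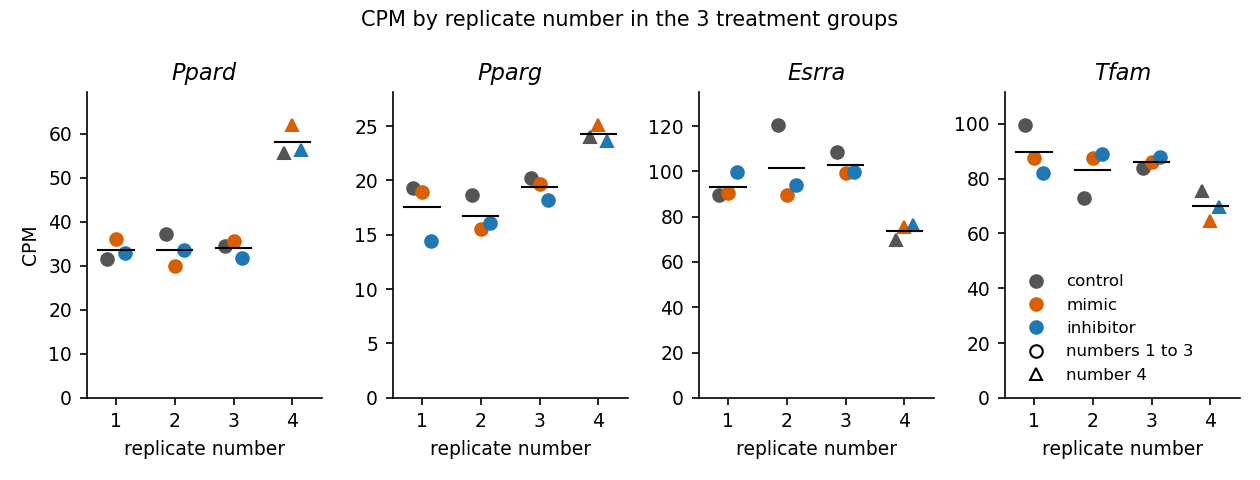
CPM of Ppard, Pparg, Esrra and Tfam by replicate number, with axes that start at 0. Points are libraries coloured by treatment, triangles are number 4 and lines are the means of the 3 libraries of a number. Number 4 is highest for Ppard (mean 58.0 CPM) and Pparg (24.3 CPM) and lowest for Esrra (73.7 CPM) and Tfam (69.9 CPM).

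The other 5 members tested did not pass. Ppara had a log2 fold change of 0.29 ± 0.13 in number 4 (SE, adjusted p = 0.0959 by edgeR), and passed when mimic 4 was left out (0.45, adjusted p = 0.0361). Pprc1 was at -0.10 ± 0.05, Gabpa at 0.10 ± 0.12, Ppargc1b at 0.08 ± 0.07 and Nrf1 at 0.03 ± 0.05. The 95% interval was -0.09 to 0.15 for Nrf1 and -0.21 to 0.02 for Pprc1. Between number 3 and numbers 1 and 2, 0 of 9 members passed, beside 0% of genes with 282 at an unadjusted p under 0.05, and DESeq2 called 139 genes and 0 members. The largest value there was 0.18 for Pparg (-0.01 to 0.37).

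Reads of overlapping genes may be shared, since how reads were assigned by strand is not given in the sources used here. By gene span in GENCODE release M21, 7 members overlap another gene, and for 3 of them that gene is in the tables used here. The longest overlap with a gene not analysed here is that of Pparg with the antisense gene Gm44079, 13176 bases on the opposite strand. Esrra overlaps Trmt112 by 73 bases, Pprc1 overlaps Ldb1 by 329 bases and Gabpa overlaps Atp5j by 701 bases, each on the opposite strand. In number 4 Trmt112 had a log2 fold change of -0.19 ± 0.08 (SE, adjusted p = 0.0841), Ldb1 one of -0.20 ± 0.06 (SE, adjusted p = 0.0206) and Atp5j one of -0.05 ± 0.04 (SE, adjusted p = 0.428), by edgeR. Their part in the members' values was not tested.

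Genes of the same pathways were read from lists by function, in the same fits. In both comparisons with control, 0 listed genes passed in any list, and list medians stayed between -0.057 and 0.057 for the 7 lists of the pathway. In mimic against inhibitor 0 passed too, with medians from -0.048 to 0.090. There 28 of 31 ERR and PGC-1 targets were below 0 and 3 above. Of 13 coactivators and corepressors, 11 were above 0 and 2 below. Genes of a list share the same libraries, so their signs are not independent. The counts below are for number 4 against numbers 1 to 3, where 41.5% of all genes passed.

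Partners of the receptors moved in both directions. Of 7 nuclear receptor genes that passed the filter, 3 were lower and 1 higher. Rxrb, an RXR that PPARs pair with, averaged 53.0 TPM over the 12 libraries and had a log2 fold change of -0.63 ± 0.08 (SE, adjusted p = 0.000186 by edgeR). Thra, the thyroid hormone receptor alpha gene, at 66.5 TPM, was higher (0.42 ± 0.06, adjusted p = 0.000353 by edgeR). Among 13 coactivators and corepressors, 3 were higher and 1 lower, with the histone acetyltransferase Ep300 at 0.27 ± 0.09 and the receptor coactivator Ncoa6 at 0.32 ± 0.09 among those that rose, and Ncoa4 at -0.17 ± 0.05 the one that fell.

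Regulators that act on PGC-1 gave 5 higher and 7 lower of 23. Lpin1, a phosphatidate phosphatase that also coactivates PPARα with PGC-1α, had the greatest difference of the named genes, from 42.6 CPM in numbers 1 to 3 to 156.1 CPM in number 4 (log2 fold change 1.88 ± 0.08, SE, adjusted p = 1.54e-07 by edgeR). Foxo3, a stress-responsive forkhead factor, was also higher (0.77 ± 0.08), and Prkag1, a regulatory subunit of AMP-activated kinase, was lower (-0.43 ± 0.07). The list of GABP and NRF1 partners held 6 genes, of which 3 were higher and 1 lower. Hcfc1 (0.25 ± 0.04), a cofactor that binds GABP, and Dynll1 (0.26 ± 0.06) were among the higher ones. The lower one, Nfe2l1 (-0.16 ± 0.05), shares the name NRF1 and is no partner of either factor, so the plotted lower share of this list rests on a gene that does not belong to it by function.

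The list of mitochondrial DNA transcription and replication, the setting in which TFAM works, gave 8 lower and 1 higher of 21, with a median of -0.050. It also holds genes that do not themselves copy or transcribe this DNA, among them Lrpprc and Lonp1. The plotted higher share of this list rests on Lrpprc. Twnk, the mitochondrial DNA helicase, fell from 47.6 CPM in numbers 1 to 3 to 36.1 CPM (log2 fold change -0.40 ± 0.05, SE, adjusted p = 9.34e-05 by edgeR). Lrpprc, which stabilises mitochondrial mRNAs, was the one that rose (0.58 ± 0.05), and Lonp1, the matrix protease that degrades TFAM, had a value of 0.23 ± 0.09 without passing.

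Reported PPAR target genes, of which 29 of 41 passed the filter, gave 4 higher and 4 lower, or 27.6%, with a median of -0.016. Acsl3, a long-chain fatty acid activating enzyme, was higher (0.69 ± 0.09), as was the acyl-CoA dehydrogenase Acadl (0.21 ± 0.05), and Txnip, a thioredoxin-binding regulator of glucose uptake, was lower (-1.01 ± 0.08). Ucp2, the most abundant of the list at 245.4 TPM, had a value of 0.19 ± 0.07 without passing. Reported ERR and PGC-1 targets gave 4 higher and 7 lower of 31, or 35.5%, with a median of -0.016. Sdhd, a complex II subunit, was lower (-0.30 ± 0.05), Slc25a4, an ADP/ATP carrier, was higher (0.23 ± 0.05), and Atp5b, an ATP synthase subunit at 3542 TPM, had a value of -0.08 ± 0.07 without passing. Beside these groups, 3 neuroblastoma and neuronal markers were higher and 8 lower of 17 in number 4, with Gata3 at -0.74 ± 0.07 among those that were lower. Markers of other cells were low in number 4 too, though not all at the level of the rest. The 7 glial genes summed to 4.75 to 5.18 TPM in number 4 and 3.46 to 5.02 TPM in numbers 1 to 3, and the 6 immune and endothelial genes to 3.07 to 3.63 TPM against 2.03 to 3.28 TPM. The fibroblast sum was 6.89 to 7.35 TPM against 6.13 to 9.90 TPM, and the adipocyte sum 5.53 to 6.17 TPM against 5.17 to 6.43 TPM. Pdgfra, a fibroblast and mesenchymal receptor at 0.415 TPM, and Pecam1, an endothelial adhesion molecule at 2.06 TPM, were the markers called higher in number 4 (0.87 ± 0.26 and 0.53 ± 0.14, log2 fold change ± SE). The part of cell identity in the members' values was not tested.

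**Figure D4:**
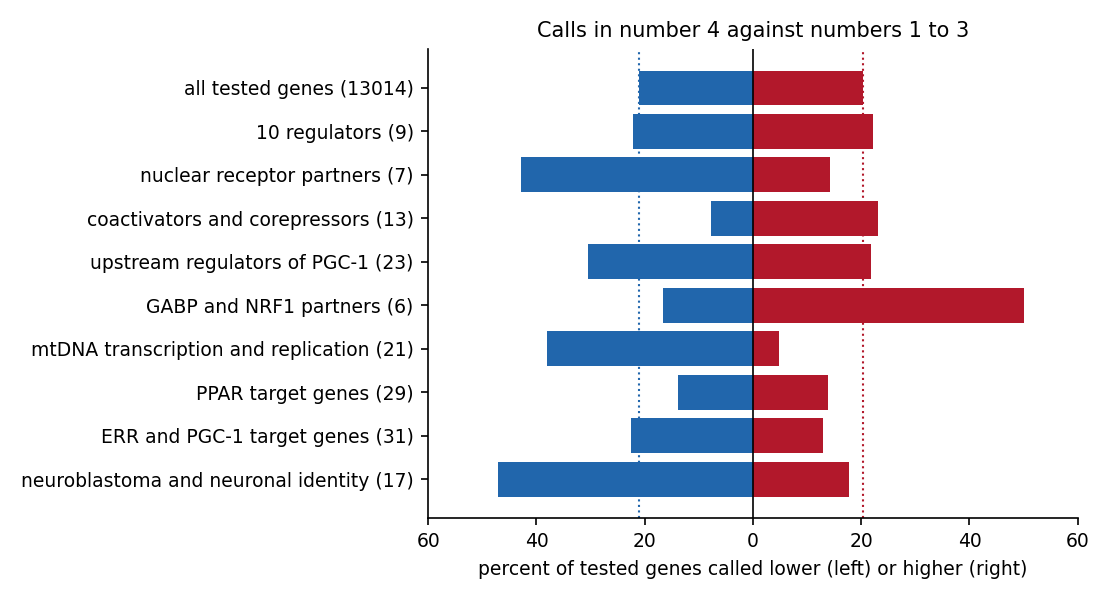
Percent of tested genes called lower (left, blue) or higher (right, red) in number 4 against numbers 1 to 3 by edgeR, for all tested genes, the 10 regulators and the pathway lists, with the number tested in brackets. Dotted lines mark the shares over all genes, 21.1% lower and 20.4% higher, and lists of few genes move in large steps.

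Candidates for a similar pattern were 10783 tested genes that averaged 2 CPM or more. Genes without a symbol, or with one ending in Rik or beginning with Gm and a digit, were left out. The genes most similar to each member were those with the highest Pearson's r of log2 CPM over the 12 libraries. These values are a description, since every gene of a library shares its depth and its replicate number. For Ppard they were Zfp395 (r = 0.989), Bcar1 (0.988) and Foxk2 (0.985), and for Pparg they were P2rx3 (0.979), Stbd1 (0.965) and Wwtr1 (0.963). Within the 9 libraries numbered 1 to 3 these values were 0.918, 0.874 and 0.784 for the partners of Ppard, and 0.944, 0.974 and 0.925 for those of Pparg. Esrra went most closely with Sardh (0.990), Rcc1l (0.989) and Prdx6 (0.985), and Tfam with Chuk (0.978), Kansl1 (0.971) and Kpna4 (0.969). Gabpa had N4bp2 (0.985), Ptbp2 (0.980) and Jak2 (0.978), and Pprc1 had Pop5 (0.973), Aen (0.962) and Rhbdd2 (0.944). Likeness was lower for Ppargc1b, with Klc3 (0.913), Rhog (0.871) and Tmco6 (0.847), for Ppara, with Itga9 (0.846), Lyn (0.823) and Adnp2 (0.821), and for Nrf1, with Slc10a4-ps (0.790), Cdk2 (0.772) and Rnf19b (0.770). No member was among the 3 genes nearest to another.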

How the data were processed

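Gene counts, whole and not normalized, and TPM values were deposited for 15767 genes in 12 libraries. The tools named per the submitters' processing notes are edgeR, fastp, featureCounts, STAR and StringTie, and the build is GRCm39. Versions, roles, annotation, strand setting: not given in the sources used here. Members were found by symbol in the TPM table and joined to the counts by gene identifier. The members, lists, named-gene rule and number contrasts were chosen with earlier results of these data known.

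The count test was that of edgeR 4.0.16, run in R 4.3.3 (TMM scaling, filterByExpr, robust quasi-likelihood fit, two-sided, Benjamini-Hochberg over 13014 genes, threshold 0.05). Treatment contrasts had group as the only term, and number contrasts had group and replicate number. The 95% intervals use each test's standard error. The floor is 3 counts, for counting error only. Alternatives were DESeq2 1.42.0, RLE scaling, no count filter, the replicate number as a block or no group term, limma 3.58.1 on log2(TPM + 1) and log2(TPM + 0.1), numbers 1 to 3 alone, and each library left out. The steps were tested on simulated data, which held no difference by replicate number in the treatment case. That run does not show how small a treatment change could be called here. Named genes were the members, up to 4 genes per list (the 2 with the highest mean TPM and the 2 with the smallest p for number 4) and the 3 genes nearest in pattern to each member. The rule also takes genes of the marker lists that are given here as sums. One result is not reported here.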

Additional observations from a re-analysis of the deposited data

Results flagged for a closer look

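In 3 of 28 member and group combinations with any count, 1 library lay far from the other 3 of its group. Chance flags about 1 in 20 such groups, which does not bear on Ppargc1a, where counts in a single library make the gap the whole range. Ppard in inhibitor 4 measured 56.4 CPM, while the other inhibitor libraries ran from 31.7 to 33.5 CPM. Tfam in mimic 4 measured 64.7 CPM, beside 85.9 to 87.5 CPM in the other mimic libraries. Both are libraries numbered 4. Ppard was also highest in control 4 (55.6 CPM) and in mimic 4 (62.0 CPM), which were not flagged. The rate of 1 in 20 takes no account of a difference shared by a replicate number. Ppargc1a in control 2 measured 0.0753 CPM, or 5 counts, and the other controls had 0.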

How the results depend on the processing

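No alternative run called a member in a treatment comparison. DESeq2 called 3 genes for mimic against control, 1 for inhibitor against control, 6 for mimic against inhibitor and 139 for number 3. With 1 library left out, genes called ranged from 0 to 1 for mimic against control, from 0 to 569 for number 3 (569 without control 2) and from 1807 to 5884 for any number (5884 without control 2, 1877 without control 4, 2180 without mimic 4, 1807 without inhibitor 4), and members called for any number from 1 to 4 (1 without inhibitor 4). For number 4, Ppard, Pparg and Esrra kept direction and call under all 18 alternatives.

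The numbers as a whole did not meet the criterion for pairing, that every same-number correlation of deviations exceed 0.1, which 7 of 12 did. The pairs of number 4 correlated at 0.44 to 0.53 and those of numbers 1 to 3 at -0.07 to 0.22. The replicate block called 0 genes in each treatment comparison, and 191, 161 and 139 genes had an unadjusted p under 0.05, against 71, 67 and 77. The 3 of 12 libraries that correlated best with their own number in both other groups were those numbered 4. Under the block, Gabpa in mimic against control had a log2 fold change of 0.012, and Pparg in inhibitor against control one of -0.20 with an unadjusted p of 0.0414 (adjusted p = 0.9998 by edgeR).

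Some signs turned, and the cause was not tested. In log2 fold change for mimic against control, Gabpa was at 0.0029 with DESeq2, 0.0030 with RLE scaling, 0.052 and 0.054 with limma (pseudocounts 1 and 0.1) and 0.091 in numbers 1 to 3 alone. Pprc1 was at 0.0022 with DESeq2, 0.0023 with RLE and 0.028 with both limma fits. In numbers 1 to 3, Ppard was at -0.021 and Tfam at 0.024. For inhibitor against control in numbers 1 to 3, Gabpa was at 0.0082 and Tfam at 0.014. For mimic against inhibitor, Ppargc1b was at 0.012 and 0.013 with limma and 0.0015 in numbers 1 to 3, and Tfam at 0.012 with both limma fits and 0.011 in numbers 1 to 3. For number 3, Ppargc1b was at 0.0059 with DESeq2 and 0.0057 with RLE.

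Leaving out each library gave ranges that crossed 0, for mimic against control, -0.23 to 0.25 for Ppard, -0.14 to 0.10 for Gabpa, -0.085 to 0.074 for Tfam, -0.035 to 0.058 for Pprc1 and -0.18 to 0.047 for Pparg. Ranges were, for inhibitor against control, -0.20 to 0.040 for Gabpa, -0.074 to 0.089 for Tfam, -0.20 to 0.049 for Esrra, -0.061 to 0.031 for Pprc1 and -0.28 to 0.16 for Ppard. Ranges were, for mimic against inhibitor, -0.050 to 0.014 for Ppargc1b, -0.18 to 0.32 for Ppard, -0.00035 to 0.29 for Pparg, -0.14 to 0.017 for Esrra, -0.083 to 0.086 for Tfam, -0.068 to 0.19 for Ppara and -0.0015 to 0.044 for Pprc1. Ranges were, for number 4 against numbers 1 to 3, -0.017 to 0.17 for Gabpa and -0.0044 to 0.046 for Nrf1. Ranges were, for number 3 against numbers 1 and 2, -0.044 to 0.066 for Ppard, -0.070 to 0.040 for Tfam, -0.062 to 0.051 for Ppargc1b and -0.049 to 0.017 for Pprc1. Depth limits Ppargc1a, and the number of libraries limits all intervals.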

Other observations

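Ratios between members within a library were set out by number. The ratio of Esrra to Ppard in TPM was 1.79 to 1.99 in the 3 libraries numbered 4 and 3.70 to 4.79 in the other 9. The ratio of Esrra to Pparg was 2.29 to 2.54 in number 4 and 3.67 to 5.44 elsewhere, and that of Tfam to Gabpa 1.98 to 2.17 against 2.48 to 3.13. The ratio of the coactivator Pprc1 to Ppargc1b moved less, 2.83 to 3.196 against 3.18 to 3.63. The ratio of Ppard to Pparg was 1.24 to 1.32 in number 4 and 0.879 to 1.22 elsewhere. The ratio of Tfam to Esrra did not separate, at 1.28 to 1.62 in number 4 within 0.905 to 1.67 elsewhere. Most of these ratios hold a member already called in number 4. They were looked at after the values of the members were known and were not tested.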
